A study of Mus musculus with 8 samples.

Results

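Opioid and orexin signalling was described here through 9 genes: the opioid receptor genes Oprm1, Oprd1, Oprk1 and Oprl1, the opioid peptide precursors Penk and Pdyn, the orexin precursor Hcrt and its receptors Hcrtr1 and Hcrtr2. They were listed by name, and their CpG cytosines were those with at least 10 reads in all 8 libraries inside the gene's mm10 span or within 5 kb of it. This gave 474 cytosines of 401 CpGs, out of 1510385 common cytosines in the whole data set. Cytosines no more than 100 bp apart were joined into runs, which gave 72 runs for the 9 genes out of 259049 in all. The assay was reduced representation bisulfite sequencing: DNA is cut at restriction sites that favour CpG-rich sequence, bisulfite converts the unmethylated cytosines, and the fragment ends are sequenced. The animals were 4 male C57 BL/6 mice after cocaine self-administration, set against 4 male C57 BL/6 mice labelled as saline in the same self-administration study. The tissue was the dissected dDG DGC layer of the brain, taken here to mean the dorsal dentate gyrus and its granule cells, with 1 library per mouse. Ages, doses and session times were not given in the sources used here.

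Opioid receptors are membrane receptors that signal mainly through inhibitory G proteins. Enkephalins, cut from the Penk product, act at mu and delta receptors, while dynorphins, cut from the Pdyn product, act mainly at kappa receptors. Dentate granule cells are known to make dynorphin and enkephalin and to carry both in their mossy fibres. Orexins are made by neurons of the lateral hypothalamus, which send fibres widely through the brain and are studied for their part in arousal and drug seeking. Methylation at CpG-dense gene starts is usually low, and in gene bodies it is usually high.

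Promoter sequence was available from RefSeq (GRCm38.p6) for 7 of the 9 genes, all but Oprk1 and Penk, in 14 entries of 250 bases before to 50 bases after an annotated start. Measured CpGs fell in 4 of these entries, in Pdyn, Oprd1 and Hcrtr1. The 250 bases before the start are printed below for 3 of them, since they show how densely CpGs were read at the starts whose levels are given next. Each is on the minus strand and written 5′ to 3′, with the measured CpGs as capital CG and all other bases in lower case. The entries are chr2:129699939-129700188 for Pdyn, chr4:130139163-130139412 for Hcrtr1 and chr4:132144487-132144736 for Oprd1.
Pdyn: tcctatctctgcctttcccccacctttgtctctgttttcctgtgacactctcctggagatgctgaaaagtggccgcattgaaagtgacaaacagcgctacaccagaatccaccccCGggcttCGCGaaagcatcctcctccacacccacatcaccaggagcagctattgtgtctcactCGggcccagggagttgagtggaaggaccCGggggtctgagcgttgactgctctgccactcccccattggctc
Hcrtr1: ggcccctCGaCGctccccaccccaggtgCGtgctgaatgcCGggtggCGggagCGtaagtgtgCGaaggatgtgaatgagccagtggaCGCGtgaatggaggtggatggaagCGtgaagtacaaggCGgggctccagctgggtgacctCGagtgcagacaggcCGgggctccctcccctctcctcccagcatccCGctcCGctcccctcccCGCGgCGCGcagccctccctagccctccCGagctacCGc
Oprd1: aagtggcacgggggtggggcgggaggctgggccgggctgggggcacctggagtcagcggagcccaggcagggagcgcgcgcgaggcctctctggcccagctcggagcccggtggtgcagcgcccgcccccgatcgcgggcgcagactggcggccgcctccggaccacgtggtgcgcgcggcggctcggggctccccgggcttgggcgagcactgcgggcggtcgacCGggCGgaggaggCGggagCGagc
In the Pdyn stretch 5 of 8 CpGs were measured, in the Hcrtr1 stretch 21 of 21 and in the Oprd1 stretch 4 of 34. Pooled over the 8 libraries, these cytosines read 0% to 3.36% in Pdyn, 0% to 6.75% in Hcrtr1 and 0% to 2.02% in Oprd1. Over the full 300 bases the Oprd1 entry held 43 CpGs, more than 97.4% of the 32815 promoters in the table, whose median was 7. The Hcrtr1 entry held 27 and the Pdyn entry 11, more than 84.5% and 58.7% of promoters. The promoter of Hcrt held 7 CpGs and that of Hcrtr2 held 10, while those of Oprm1 and Oprl1 held 2 to 5. A GC box, searched as the letters GGGCGG on either strand, was found in the Oprd1 and Hcrt entries and in 35.6% of all promoters. A CRE half-site, searched as CGTCA on either strand, was found in the Hcrtr2 entry and in 20.8% of all promoters. The GC box letters contain a CG and can overlap the CpGs marked above.

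Reads summed over listed cytosines ranged from 87964952 to 141775386 per library, and median coverage per cytosine from 34 to 66 reads. Mean methylation over the common cytosines was 37.3% ± 0.697 in cocaine mice and 38.0% ± 0.168 in saline mice (SD, n = 4 each). One saline library, saline 1, stood apart. At cytosines of intermediate pooled level (20% to 80%) with 30 to 40 reads, exact values of 0% or 100% made up 14.3% of its data, while the other 7 libraries had 0.368% to 2.87%. Among the 102 intermediate cytosines of the 9 genes it had 13 such values, and no other library had more than 5. Results that rest on saline 1 are therefore given with and without it. Expression was not measured in these libraries, so the tissue label could not be checked against marker transcripts. Gene-window methylation of a list of dentate granule cell markers (6 of 7 genes measured) ranged over 12.7% to 17.3% among cocaine mice, against 15.2% to 16.5% among saline mice. For astrocyte markers (5 of 5 genes) it was 28.0% to 31.8% among cocaine mice and 31.1% to 31.9% among saline mice. The lists for pyramidal cells, interneurons, oligodendrocytes, microglia and endothelial cells had cocaine means lower by 0.280 to 1.58 points. The part of cell make-up in the results below was not tested.

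Averaged over all cytosines of a gene's window (its span and 5 kb either side), the 9 genes ranged from a few percent to over 90%, in cocaine and saline mice alike. Oprk1, the kappa receptor gene, had 91.5% ± 2.72 in cocaine mice and 90.8% ± 2.42 in saline mice (SD, n = 4 each, as for all means below). Hcrtr2 read 91.2% ± 1.23 in cocaine and 91.5% ± 0.415 in saline mice, and Oprl1, the nociceptin receptor gene, had 90.2% ± 5.22 in cocaine mice and 87.9% ± 5.21 in saline mice. These 3 overlapped one another in both groups. Oprm1, the mu receptor gene, came next at 47.6% ± 3.21 in cocaine and 49.1% ± 4.68 in saline mice, and Pdyn at 40.7% ± 10.8 in cocaine and 44.6% ± 2.92 in saline mice. Their ranges overlapped too. Oprd1, the delta receptor gene, had 24.7% ± 3.00 in cocaine mice and 28.1% ± 1.72 in saline mice, while Hcrtr1 read 20.3% ± 2.14 in cocaine and 21.9% ± 1.65 in saline mice. These neighbours overlapped in cocaine mice and not in saline mice. Hcrt read 10.2% ± 4.29 in cocaine and 12.8% ± 1.78 in saline mice, and Penk was lowest at 2.31% ± 1.01 in cocaine and 2.54% ± 0.452 in saline mice. Such averages mix starts with gene bodies: no cytosine within 1 kb of the outermost annotated start was measured in Oprm1, Oprl1 or Hcrtr2, or within 1 kb of either end of Oprk1.

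The comparison of cocaine with saline mice asked whether methylation at these signalling genes differed after cocaine self-administration. No gene window passed the test, and the cocaine mean was lower in 6 of the 8 windows tested. A quasi-binomial test of methylated against unmethylated reads, with the spread between mice included, called 0 of the 8, taking an adjusted p below 0.05 and 5 points or more as a call. It called 0% of all 14466 gene windows as well, and limma on logit levels also called 0 of the 8. An unadjusted p under 0.05 was reached by 0 of the 8, against 5.12% of all windows. The median difference was -1.56 points for the 8 and -1.13 points for all windows, 72.5% of which were lower in the cocaine mean. Among the 8, the smallest unadjusted p was that of Oprd1, with a difference of -3.37 points (SE 1.73, quasi-binomial test, adjusted p = 0.915). Cocaine mice read 22.1%, 24.0%, 23.7% and 29.0% there, and saline mice 29.4%, 25.8%, 29.4% and 27.8%. Cocaine 4 lay among the saline mice, and without it 3 of the 8 windows reached an unadjusted p under 0.05, as did 15.4% of all windows.

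The precursor of the enkephalins, Penk, was measured almost wholly at 1 end of the gene. Its run of 71 CpGs (chromosome 4, 4137941 to 4138970) spans the upper end of the gene at 4138815, and was read by at least 4010 reads in each library. It read 1.28%, 1.05%, 0.574% and 3.39% in cocaine 1 to 4, and 2.22%, 2.12%, 1.37% and 1.18% in saline 1 to 4. All 8 mice were below 5% and the groups overlapped, with a difference of -0.151 points (SE 0.677, below the level at which runs were tested). Within the run, 6 of 84 cytosines had no methylated read in any library, and the highest pooled level of a single cytosine was 19.4%. The next CpG, at 4137792, was already at 46.5% ± 11.1 in cocaine and 47.1% ± 7.99 in saline mice. This CpG lies 149 bp from the edge of the run, on the side where single cytosines of the run were highest in both groups.

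The dynorphin precursor Pdyn was read at its start and in its body. At the start, the 5 CpGs that are capital in the Pdyn sequence above (chromosome 2, 129699981 to 129700072) read 1.16%, 0%, 3.65% and 7.98% in cocaine 1 to 4. Saline 1 to 4 read 0%, 0%, 1.66% and 0%. Cocaine 3 and cocaine 4 were above all saline mice and cocaine 2 was at 0, so the groups overlapped. The difference was 2.78 points (SE 1.81, not tested at this level), and 1.19 points without cocaine 4. The values of 0 rested on 125 to 237 reads, which allow a level of up to 1.27% to 2.40%. These limits, 3 reads of the total, cover counting error only.

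In the body of Pdyn, the run of 16 CpGs at 129688203 to 129688558 read 36.7%, 55.5%, 64.8% and 66.8% in cocaine 1 to 4, and 75.0%, 55.0%, 54.0% and 65.4% in saline 1 to 4. Cocaine 1 was the lowest mouse and saline 1 the highest, and the other 6 lay between 54.0% and 66.8%. The difference of -6.44 points (SE 8.46, adjusted p = 0.970) became -0.0205 points without cocaine 1, -2.22 points without saline 1, and up to -10.1 points without cocaine 4. The strands of cocaine 1 differed, with 14.1% over its plus-strand cytosines and 49.2% over its minus-strand cytosines. In the other 3 cocaine mice the plus strand read 51.7%, 69.8% and 62.1% and the minus strand 58.8%, 61.7% and 73.3%. In saline 1 to 4 the plus strand read 75.8%, 55.9%, 50.9% and 77.9%, and the minus strand 72.8%, 54.5%, 56.3% and 53.4%.

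The orexin precursor Hcrt was nearly unmethylated inside the gene. Its run of 10 CpGs (chromosome 11, 100762028 to 100762119, 812 bp into the gene) read 3.42%, 0%, 1.91% and 0% in cocaine 1 to 4, and 0%, 0.435%, 0% and 0.385% in saline 1 to 4. Both groups held mice at 0, which at 113 to 401 reads allows up to 0.748% to 2.65%. A second run of 10 CpGs, downstream of Hcrt and inside the potassium channel gene Kcnh4, whose promoter it overlaps, did not exceed 0.207% in cocaine or 0.478% in saline mice. Upstream, in the neighbouring gene Ghdc, 3 CpGs (100766859 to 100766913) read 76.5%, 50.0%, 61.8% and 83.6% in cocaine mice and 82.5%, 75.5%, 78.8% and 57.5% in saline mice. The groups overlapped over most of their range, with a difference of -5.61 points (SE 9.34, adjusted p = 0.987). Without cocaine 2 that difference was 0.368 points.

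**Figure D1:**
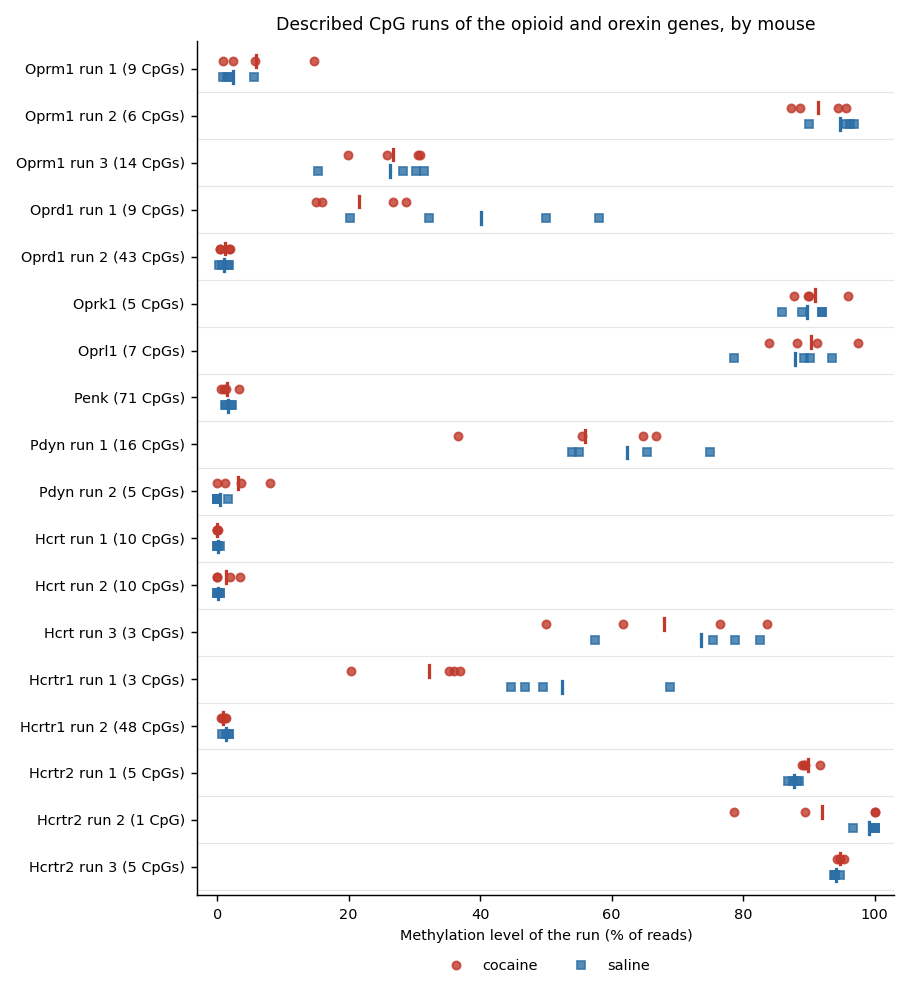
Methylation level (x axis, % of reads) in each mouse for the runs described in the text, by gene from top to bottom and, within a gene, by rising coordinate; red circles are cocaine mice, blue squares saline mice, and short bars the group means (4 mice each). The 2 groups are apart in the 3-CpG run of Hcrtr1 (20.4% to 36.9% in cocaine, 44.7% to 68.9% in saline mice) and, by a small margin, in the first run of Hcrtr2, and they overlap in the other runs shown.

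Among the tested runs of the opioid receptor genes, Oprd1 had the one with the largest difference in mean. Within its body, 9 CpGs at chromosome 4, 132113701 to 132113799, 30687 bp from the start, averaged 21.7% ± 7.15 in cocaine and 40.1% ± 17.1 in saline mice. Cocaine 1 to 4 read 26.8%, 28.8%, 16.0% and 15.0%, and saline 1 to 4 read 58.1%, 50.0%, 32.3% and 20.2%. Saline 4 lay inside the cocaine range, and the saline mice spread over 37.9 points. The difference was -18.5 points (SE 9.28, quasi-binomial test, unadjusted p = 0.0110, adjusted p = 0.876), so the run was not called. Without saline 1 it was -12.5 points, and without saline 1 and cocaine 3 together -10.6 points. Without saline 4 it was -25.1 points. All 9 cytosines, which were read on the plus strand only, had the lower mean in cocaine mice, by 9.25 to 23.4 points.

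The other tested runs of Oprd1 had smaller differences in mean. The next 12 CpGs, at 132113904 to 132114121, read 52.9% ± 4.90 in cocaine mice and 55.5% ± 6.80 in saline mice. Nearer the start, 3 CpGs at 132143702 to 132143740 read 63.0%, 55.3%, 59.5% and 39.1% in cocaine and 64.9%, 66.0%, 62.9% and 69.8% in saline mice. Cocaine 1 overlapped saline 3 by a narrow margin there, and the difference was -11.7 points (SE 5.48, adjusted p = 0.883), or -6.69 points without cocaine 4, the lowest mouse. At the start itself, the run of 43 CpGs (132144159 to 132144510) stayed near 0, at 0.483%, 1.82%, 0.431% and 2.00% in cocaine and 1.76%, 1.62%, 0.745% and 0.287% in saline mice. Upstream of it, 4 CpGs at 132145352 to 132145433 read 14.0% ± 3.23 in cocaine mice, against 20.2% ± 5.25 in saline mice (adjusted p = 0.908). All 8 tested runs of Oprd1 had the lower mean in cocaine mice, as did 61.8% of all tested runs. In 7 of the 8 the difference was also below the median difference of all tested runs, -1.06 points. Only the run of 9 CpGs reached an unadjusted p under 0.05. The untested runs of Oprd1 went both ways, such as 5.25 points at 132110353 and -8.45 points at 132141099. Within 1 kb of its start the gene read 6.46% ± 0.649 in cocaine mice, against 7.09% ± 1.05 in saline mice (adjusted p = 0.978).

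Oprm1 was read in 19 runs along 279617 bp, of which 13 were above 80% in both group means. Its run closest to an annotated start (chromosome 10, 6788889 to 6789055, 9 CpGs, 313 bp past an inner start) read 5.80%, 0.878%, 2.42% and 14.7% in cocaine 1 to 4. Saline 1 to 4 read 0.968%, 1.47%, 1.75% and 5.66% there. Cocaine 4 and saline 4 were the highest of their groups, and the groups overlapped. The difference was 3.48 points (SE 3.27, not tested at this level), and 0.571 points without cocaine 4. The run of Oprm1 with the smallest p, 6 CpGs at 6830070 to 6830178, read 94.4%, 87.2%, 88.6% and 95.6% in cocaine mice. In saline mice it read 96.2%, 96.8%, 95.6% and 90.0%, and the difference was -3.21 points (SE 2.61, adjusted p = 0.901), or -1.80 points without cocaine 2. All runs of Oprm1 from 6907661 on also lie inside the overlapping gene Ipcef1 and are not specific to Oprm1. Among them is the longest, 14 CpGs at 6979453 to 6979968, of low to intermediate level. It read 30.9%, 25.9%, 19.9% and 30.5% in cocaine and 15.3%, 28.3%, 30.3% and 31.5% in saline mice, a difference of 0.428 points (SE 4.54, adjusted p = 0.993) that was -3.25 points without saline 1.

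Oprk1 and Oprl1 were measured sparsely and were highly methylated where read. The 5 CpGs of Oprk1 (chromosome 1, 5584657 to 5584864) lie outside the gene, 3586 bp from its nearer end. They read 96.0%, 90.0%, 89.9% and 87.7% in cocaine and 92.0%, 86.0%, 91.9% and 88.9% in saline mice, a difference of 1.21 points (SE 2.29, adjusted p = 0.990). In Oprl1, 7 CpGs (chromosome 2, 181718819 to 181719011), 3129 bp past the nearest start, read 97.5%, 88.2%, 91.3% and 84.0% in cocaine and 78.6%, 90.2%, 89.3% and 93.6% in saline mice. Saline 1 was the lowest of all 8. The difference of 2.34 points (SE 4.31, adjusted p = 0.988) was -0.758 points without it.

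The orexin receptor genes held both tested runs whose groups did not overlap, 1 in each direction. Over all tested runs of the data set, 2.59% did not overlap with cocaine lower and 0.701% with cocaine higher. In Hcrtr1, which encodes the receptor that prefers orexin A, 3 CpGs at chromosome 4, 130130995 to 130131045, 6245 bp from the nearest start, averaged 32.2% ± 7.86 in cocaine and 52.5% ± 11.1 in saline mice. Cocaine 1 to 4 read 20.4%, 36.0%, 35.3% and 36.9%, and saline 1 to 4 read 68.9%, 46.8%, 44.7% and 49.5%. The highest cocaine mouse was 7.77 points below the lowest saline mouse. The difference was -20.3 points (SE 6.82, quasi-binomial test, unadjusted p = 0.00809, adjusted p = 0.876), so this run was not called. The most distant values were those of cocaine 1 and saline 1. Without saline 1 the difference was -14.8 points (adjusted p = 0.782), without cocaine 1 it was -16.4 points, and without saline 1 and cocaine 3 together it was -15.9 points. All 3 cytosines, read on the plus strand only, were lower in cocaine mice. The first CpG read 12.9%, 30.3%, 32.8% and 32.2% in cocaine and 75.4%, 54.8%, 37.8% and 51.5% in saline mice. The middle one read 32.3%, 49.3%, 60.7% and 57.8% in cocaine and 91.2%, 55.8%, 58.8% and 60.6% in saline mice, and its groups overlapped. The third was lower again, at 16.1%, 28.4%, 12.9% and 20.5% in cocaine and 40.6%, 29.8%, 37.8% and 36.4% in saline mice.

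**Figure D2:**
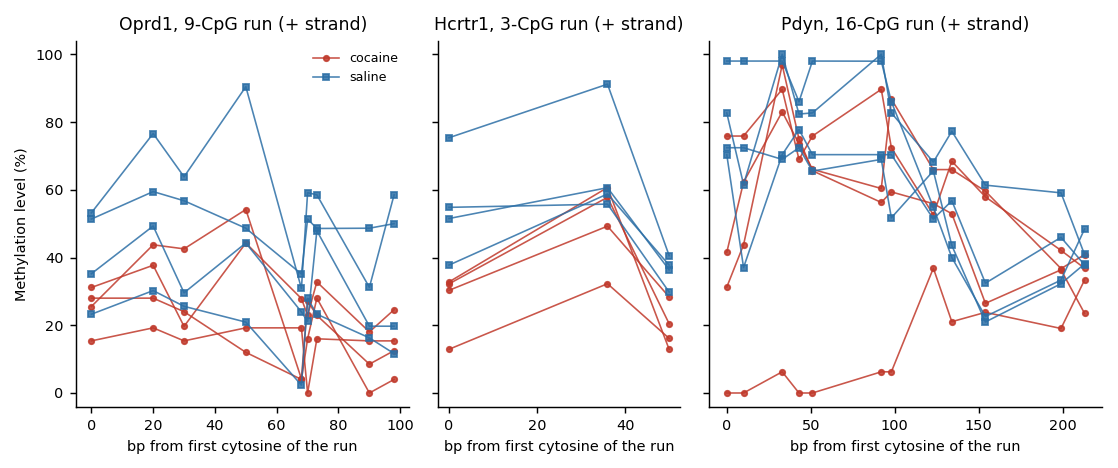
Methylation level (y axis, %) of each plus-strand cytosine against its distance in bp from the first cytosine of the run (x axis), for runs in Oprd1, Hcrtr1 and Pdyn; each line is 1 mouse, red circles cocaine and blue squares saline (4 mice each). In Hcrtr1 cocaine 1 is the lowest line at the first and middle CpG and saline 1 the highest at all 3, and in Pdyn cocaine 1 lies between 0% and 6.25% over the first 98 bp.

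The other tested runs of Hcrtr1 had smaller differences in mean. The nearest tested one, 7 CpGs at 130130149 to 130130445, read 28.2% ± 5.10 in cocaine mice, against 26.9% ± 4.48 in saline mice (adjusted p = 0.963). Closer to the run at 130130995 lies a single CpG at 130131194, read on the minus strand and too short to be tested. It went the other way, at 62.1% ± 9.63 in cocaine and 53.1% ± 11.9 in saline mice, and its groups overlapped. A further 11 CpGs at 130132723 to 130133116 read 91.2% ± 2.67 in cocaine mice, against 90.5% ± 2.52 in saline mice (adjusted p = 0.992). At the start, 48 CpGs (130138791 to 130139506), which include the 21 in the Hcrtr1 sequence above, read 1.33%, 0.556%, 0.707% and 1.15% in cocaine mice. Saline mice read 1.31%, 1.81%, 0.771% and 1.75%, and the groups overlapped at these low levels. Within 1 kb of the outermost start, over 71 cytosines, the level was 2.18%, 1.29%, 1.42% and 1.73% in cocaine and 2.35%, 2.83%, 2.35% and 3.01% in saline mice. There the groups did not overlap, with a difference of -0.978 points (SE 0.260) that was -0.853 to -1.15 points when each mouse was left out in turn. It was below the level at which starts were tested, and of the 2660 gene starts tested 3.31% did not overlap with cocaine lower. Of the 71 cytosines, 69 form the run of 48 CpGs, where the groups overlapped and the difference was -0.474 points. The other 2 are single CpGs upstream of the start, too short to be tested as runs. One, at 130139955, read 41.1% ± 11.8 in cocaine mice and 40.8% ± 9.11 in saline mice, and the other, at 130140079, read 67.0% ± 24.1 in cocaine mice and 88.0% ± 8.48 in saline mice. The level within 1 kb sums reads, so it also depends on how many fall on these 2 CpGs. They had 11 to 100 and 20 to 61 reads per library, and their part in the difference was not tested. The runs of Hcrtr1 downstream of the gene lie inside the neighbouring gene Pef1 and are not specific to Hcrtr1.

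Hcrtr2, the receptor gene for both orexins, was highly methylated throughout and had no cytosine measured within 1 kb of its start. In its body 5 CpGs at chromosome 9, 76227845 to 76228008, read 89.2%, 91.7%, 88.9% and 89.3% in cocaine mice. Saline mice read 86.8%, 88.1%, 88.5% and 87.6%, all below the lowest cocaine mouse by at least 0.490 points. The difference was 2.06 points (SE 0.741, adjusted p = 0.930), on 416 reads or more per library, and 1.41 points without cocaine 2. The untested runs of the body went both ways. They differed by -0.246 points at 76251606, 4.44 at 76272559, -7.35 at 76293504 and -7.32 at 76293646. Upstream, 5 CpGs at 76326608 to 76326622 read 94.8%, 94.2%, 94.8% and 95.4% in cocaine and 94.8%, 93.9%, 93.9% and 93.9% in saline mice, a difference of 0.679 points (SE 0.318, adjusted p = 0.979). The single CpG at 76326451 between that run and the gene read 100%, 100%, 78.6% and 89.5% in cocaine and 100%, 96.7%, 100% and 100% in saline mice.

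Of the 72 runs, 34 held at least 3 CpGs, and 26 of these had a pooled level from 5% to 95% and were tested. The other 8 were below 5%. A run was called where its adjusted p was under 0.05 and its difference at least 10 points. None of the 26 was called, and neither was any of the 92484 runs tested in all (0%). With limma on logit levels 0 were called as well. The adjusted p of the 26 lay between 0.876 and 0.999. An unadjusted p under 0.05 was reached by 2 of the 26 (7.69%), those of Oprd1 and Hcrtr1, against 5.65% of all runs. Both had the lower mean in cocaine mice, where 4.57% of all runs had a small p with the lower mean and 1.08% with the higher. Of all runs at an unadjusted p under 0.05, 80.9% were lower in cocaine mice by the quasi-binomial test and 77.0% by limma on logit levels. Limma with each library first centred on its own median gave 52.2%. There, lower was counted after the median difference of all runs was subtracted. That leaves as many of all tested runs lower as higher, but does not fix the share among those with a small p. Centring also takes away any shift that a whole library has, so the 52.2% cannot show whether the excess of lower runs depends on the scaling. Groups that did not overlap were found once with cocaine lower (3.85% of 26, against 2.59% of all runs) and once with cocaine higher (3.85%, against 0.701%). The cocaine mean was lower in 16 of the 26 (61.5%), close to the 61.8% of all runs, and the median difference was -1.36 points, against -1.06 points over all. The spread between mice, as dispersion relative to binomial counting, had a median of 5.75 in the 26 and 5.05 over all runs, and reached 37.4 in the Oprd1 run and 46.0 in the Pdyn body run.

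**Figure D3:**
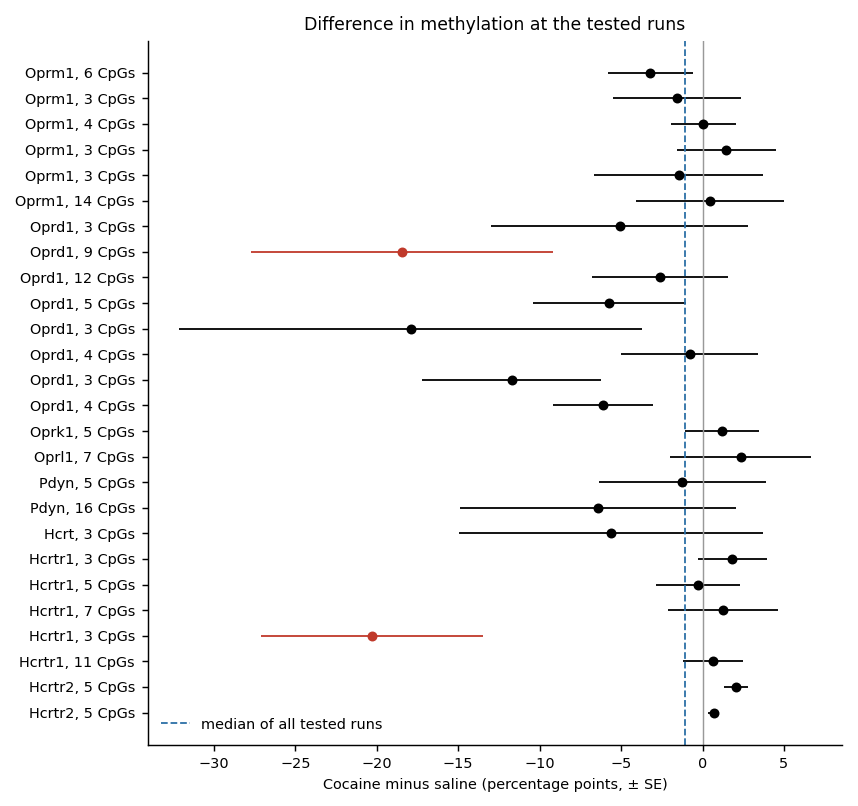
Cocaine minus saline difference in mean methylation (x axis, percentage points) with its standard error for the 26 tested runs, by gene from top to bottom; red points are the runs with an unadjusted p under 0.05 and the dashed line is the median of all tested runs, -1.06 points. The red points are the Oprd1 run of 9 CpGs (-18.5 points) and the Hcrtr1 run of 3 CpGs (-20.3 points), and an Oprd1 run of 3 CpGs at -17.9 points has the longest error bar.

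At single cytosines, 196 of the 474 had a pooled level from 5% to 95%, and 0 of these were called, against 1 of 666028 over the data set (0.00015%). An unadjusted p under 0.05 was reached by 15 (7.65%, against 6.1% of all), 12 lower in the cocaine mean (4.12% of all) and 3 higher (1.98% of all). The smallest was the first cytosine of the Pdyn body run, on the plus strand at 129688203. It read 0%, 31.3%, 75.9% and 41.5% in cocaine and 82.7%, 70.4%, 72.4% and 98.0% in saline mice, a difference of -43.7 points (quasi-binomial test, adjusted p = 0.493). Cocaine 3 lay within the saline range and the other 3 cocaine mice below it. At single cytosines the dispersion was replaced by a trend shared across cytosines, so this p does not measure the spread at that base.

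The 9 genes covered the range of methylation found in the data as a whole. Of their cytosines, 50.6% were below 5%, 8.02% above 95% and 21.5% between 20% and 80%, against 47.1%, 8.82% and 17.2% of all common cytosines. Of 73 CpGs read on both strands, 23 were at an intermediate level of 5% to 95%, and their strands differed by a median of 4.64 points when pooled over the libraries. The largest gap, 18.0 points, was in Hcrtr1 at the CpG of base 130130149. In 12 of the 23 the strands gave cocaine minus saline differences of opposite sign.

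A further list held 46 genes set beside opioid and orexin signalling, not all of which act with these receptors. It covered peptide processing enzymes, G protein subunits, regulators of G protein signalling, receptor kinases, arrestins, potassium channels and adenylyl cyclases. Further peptide, signalling and transcription factor genes were also on it. Of the 43 with a tested window, 0 were called and 0 reached an unadjusted p under 0.05, against 5.12% of all windows. The cocaine mean was lower in 34 and higher in 9, with a median difference of -1.15 points, against -1.13 points over all windows. With the lower mean, the smallest p values were those of Mme, Grk3, Kcnj3 and Rgs14. Mme, which encodes the enkephalin-degrading enzyme neprilysin, read 19.1% ± 6.99 in cocaine mice, against 25.1% ± 3.24 in saline mice (quasi-binomial test, adjusted p = 0.912), and its lowest mouse was cocaine 1 at 9.21%. Grk3, a receptor kinase gene, had 42.3% ± 4.07 in cocaine mice and 46.8% ± 2.73 in saline mice. Kcnj3, a subunit gene of the potassium channels that G proteins open, read 13.1% ± 4.18 in cocaine and 17.6% ± 4.90 in saline mice. Rgs14, a regulator of G protein signalling, was the only one of the 43 whose groups did not overlap (2.33%, against 3.44% of all windows with cocaine lower). It read 61.0%, 63.3%, 63.8% and 63.6% in cocaine and 65.6%, 66.3%, 68.4% and 68.5% in saline mice (difference -4.29 points, SE 0.986, adjusted p = 0.919).

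Among list members whose cocaine mean was higher, the smallest p values were those of Adcy8, Arrb2, Gnai3 and Cpe, none of them under 0.05. Adcy8, an adenylyl cyclase gene, had 45.2% ± 6.52 in cocaine mice and 42.1% ± 3.83 in saline mice. Arrb2, which encodes an arrestin that binds phosphorylated opioid receptors, read 15.1% ± 3.12 in cocaine and 13.3% ± 2.20 in saline mice. Gnai3, an inhibitory G protein subunit gene, had 22.6% ± 2.59 in cocaine mice and 20.9% ± 2.70 in saline mice. Cpe, a carboxypeptidase gene of peptide processing, read 32.7% ± 3.99 in cocaine and 31.7% ± 2.87 in saline mice. The groups overlapped in all 4. Npff had only 4 cytosines, and Pcsk1 and Rgs19 were below 5%, so these 3 were not tested.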

How the data were processed

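Reduced representation bisulfite libraries of 4 cocaine and 4 saline mice were compared, 1 library per mouse, grouped by the sample titles. The submitters' processing notes name bcl2fastq, Bismark version 22.1 and the mm10 build. How reads were trimmed, and whether duplicates were removed, is not stated in the sources used here. The deposited level, named as a percent in the file headers, is a fraction from 0 to 1 and is shown here times 100. Coverage was deposited as a read count, at least 10 per cytosine. Their product gave whole methylated read counts. No molecular identifiers are given, so counting limits understate the error. Of 47014 cytosines checked, 100% lay on a CG of the RefSeq (GRCm38.p6) promoters, so coordinates are counted from 1. Spans came from the RefSeq gene table.

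Cytosines with 10 reads or more in all 8 libraries, strands kept apart, were joined into runs with gaps of at most 100 bp. Runs of at least 3 CpGs, gene windows and starts of at least 5 cytosines, and single cytosines were tested where the pooled level was 5% to 95%. Methylated and unmethylated reads were fitted on group by quasi-binomial regression in R 4.3.3, with dispersion moderated by limma 3.58.1 (trend on coverage, floor of 1), an F test and Benjamini-Hochberg adjustment over all features of that kind. Spread between mice therefore enters each p except at single cytosines. Level means weight the 4 mice equally, and SE is that of the difference in means. Among 28 pairs of libraries the lowest chi-square per region was 4.82, so none repeated another. Alternatives were other tests, centring, filters, 20 reads, leaving out libraries and a block on replicate number.

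All 9 genes are named, each with its run of smallest p, of most CpGs and nearest a start; of the pathway list, the 4 smallest p in each direction. The genes, lists and rules were chosen with earlier results of these data known. Exon and intron positions were not used here.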

Additional observations from a re-analysis of the deposited data

Results flagged for a closer look

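In 7 of 54 groups of 4 mice (27 runs and windows in either group), 1 mouse stood apart from the other 3 by more than Dixon's critical value of 0.829 of the group's range. Chance flags about 1 group in 20 where values are spread normally, and that rate does not apply to 3 of the 7, in which the other mice were all at 0% or all at 100%. In Hcrtr1, cocaine 1 read 20.4% in the 3-CpG run at 130130995, below the other 3 cocaine mice at 35.3% to 36.9%. In Hcrtr2, cocaine 2 read 91.7% in the run at 76227845, above the other 3 cocaine mice at 88.9% to 89.3%. At the single CpG 76326451 of Hcrtr2, saline 2 read 96.7% where the other saline mice were at 100%, and in the run at 76326608 saline 1 read 94.8% where the others were at 93.9%. In Oprm1, saline 4 read 5.66% in the run at 6788889, above the other saline mice at 0.968% to 1.75%. At the start of Pdyn (129699981), saline 3 read 1.66% where the other saline mice were at 0. In the run downstream of Hcrt at 100759703, cocaine 3 read 0.207% where the other cocaine mice were at 0.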

How the results depend on the processing

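No run, window or cytosine of the 9 genes was called under any alternative. Of 620 alternative values of 42 single runs, windows and starts, 568 kept their sign and 52 changed it. Of these, 15 were of runs and starts near 0% (Penk, Oprd1 and Hcrt) and came to no more than 0.350 points. The tested ones follow. For the centred fit, the median difference of all windows or runs was subtracted from each difference. That constant shift alone put the Hcrtr2 window at 0.846, the Oprd1 run at 132137348 at 0.279 and the Hcrtr1 run at 130127310 at 0.751 points. At 20 reads the Hcrtr1 run at 130130149 was -0.0248 points. Without saline 1 and cocaine 3 together, the Hcrtr2 window was 0.421, the Oprl1 window -0.290, the Oprl1 run -1.11, the Hcrtr1 runs at 130127310 and 130132723 0.242 and -0.931, and the Oprm1 run at 6979453 -0.942 points, with 4 runs not overlapping with cocaine higher, as did 3.77% of all runs (1 and 0.701% with all mice). Leaving out each mouse in turn gave -3.25 to 2.74 points for that Oprm1 run, -0.492 to 2.27 for the Oprk1 run, -0.758 to 4.42 for the Oprl1 run and -11.0 to 0.368 for the Hcrt run at 100766859. In Oprd1 it gave -8.70 to 0.167 for the run at 132109709, -4.93 to 0.245 at 132113904 and -3.82 to 2.06 at 132137348. In Hcrtr1 it gave -2.15 to 1.18 at 130127310, -1.20 to 2.99 at 130130149 and -0.337 to 1.72 at 130132723. For gene windows it gave -3.23 to 0.541 for Oprm1, -0.690 to 1.42 for Oprk1, -0.101 to 4.06 for Oprl1, -8.25 to 0.483 for Pdyn and -0.660 to 0.246 for Hcrtr2. The cause was not tested.

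Runs at an unadjusted p under 0.05 with cocaine lower numbered 2, and 1 with limma on logit levels, with centred logit levels, with each run's own dispersion, with at least 5 CpGs, and without saline 1 and cocaine 3. Left out in turn, single mice gave 1 (without saline 1) to 4 (without cocaine 2). With cocaine higher, 0 such runs became 1 with no filter on level. With each mouse left out in turn, groups not overlapping with cocaine lower numbered 1 to 2, against 4.04% to 5.85% of all runs. They numbered 0 with at least 5 CpGs (2.78% of all runs), since the Hcrtr1 run then leaves. With cocaine higher and each mouse left out they numbered 1 to 3, against 1.40% to 2.19% of all runs. Without saline 1 and cocaine 3 together that number was 4, as given above. Windows at an unadjusted p under 0.05 numbered 0 to 3, with 3 without cocaine 4, where 15.4% of all windows reached it (5.12% with all mice). Cytosines at an unadjusted p under 0.05 numbered 15, and 8 with limma on logit levels, 7 with centred logit levels, 31 with no filter on level, 8 at 20 reads, and 9 (without saline 1) to 20 with a mouse left out. Over the whole data set, called cytosines numbered 1, 0 with limma on logit or centred logit levels, own dispersion, the replicate block or no filter on level, and 0 to 27 with a mouse left out (26 without saline 3, 27 without saline 4).

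Mice with the same replicate number did not deviate together (correlations -0.00753 to 0.0293 in 4 pairs). The labels do not say whether the numbers pair the mice, and these correlations cannot settle it. With the replicate number as a block, 1 run of the whole data set was called and 0 of the 26, and 2 of the 26 had an unadjusted p under 0.05. The Oprd1 run then had an adjusted p of 0.364 and the Hcrtr1 run one of 0.812. Depth limits the runs of few reads most: the Oprd1 run at 132134044 rested on as few as 33 reads in a library and the Hcrt run at 100766859 on 34.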

Other observations

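At the CpG of base 6830165 in Oprm1, the plus-strand cytosine read 95.3%, 89.3%, 60.0% and 86.7% in cocaine 1 to 4 and 100% in all 4 saline mice, a difference of -17.2 points. The minus-strand cytosine of the same CpG, at 6830166, read 100% in all 4 cocaine mice and 83.3%, 75.0%, 94.1% and 100% in saline 1 to 4, a difference of 11.9 points. Both had an unadjusted p under 0.05 in the quasi-binomial test, and neither passed adjustment (adjusted p = 0.704 and 0.767). As at the other single cytosines, these p values do not measure the spread between mice at that base.

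In the Pdyn body run, the 7 plus-strand cytosines from 129688203 to 129688301 read 0% to 6.25% in cocaine 1. The 10 minus-strand cytosines of the run, at 129688237 to 129688558, read 49.2% together in that mouse. The sets cover the same CpGs only in part. All these values are from 1 library, and no test was made of them. In Oprd1, the run of 3 CpGs at 132134044 had the widest spread among cocaine mice of the tested runs of that gene, at 28.2%, 65.1%, 57.6% and 19.4% in cocaine and 83.3%, 40.0%, 57.9% and 60.8% in saline mice, on 11 to 20 reads per cytosine (difference -17.9 points, SE 14.2, adjusted p = 0.884). Without saline 1, the highest mouse, the difference was -10.3 points.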
